A study of Mus musculus with 9 samples.

Results

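The 10 genes described here encode the somatic cohesin ring, its loader and the factors that bind it on chromatin: Smc1a, Smc3, Rad21, Stag1, Stag2, Nipbl, Mau2, Wapl, Pds5a and Pds5b. They were found by gene symbol in a table of raw counts that lists 16636 genes, and all 10 were present and passed the filter on low counts with 14246 genes tested. RNA was sequenced from E14 cells, a wild-type mouse embryonic stem cell line, kept naive in 2i/LIF medium, a culture with MEK and GSK3 inhibitors plus the cytokine LIF. The 3 groups were untreated cells, cells given a luciferase siRNA as control (siLuc) and cells given Stag3 siRNA (siStag3), both for 48 h in the same medium and with a repeated lipid transfection, with 3 libraries per group. Each group held 2 libraries of a Set 1 and 1 library of a Set 3, as the column names call them. What the set and experiment numbers stand for is not given in the labels.

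Cohesin is a ring of SMC1A, SMC3 and RAD21 to which 1 STAG protein binds, either STAG1 or STAG2 in somatic cells and STAG3 in meiosis. NIPBL and MAU2 together load the ring onto DNA and drive its extrusion of loops, WAPL releases it, and PDS5A and PDS5B bind it and take part in both its release and its stable hold on sister chromatids. In embryonic stem cells cohesin holds sister chromatids together and, with CTCF, shapes the contacts between genes and their enhancers. The comparison of siStag3 with siLuc asks what happened to the transcripts of the other cohesin genes when Stag3 RNA was lowered. That of siLuc with untreated cells shows the background of the siRNA treatment. In it the siRNA and the lipid transfection cannot be told apart, since no group had lipid alone.

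The libraries held between 29332436 and 44527534 counts, and mitochondrial genes took from 3.48% to 6.78% of them. 8 markers of naive embryonic stem cells summed to between 4545 and 5004 CPM (counts scaled to a common library size) over the 9 libraries, with no marker at 0. Markers of primitive endoderm summed to between 2.28 and 4.24 CPM, of trophoblast to between 3.70 and 5.42 CPM, of fibroblasts to between 3.43 and 5.58 CPM and of two-cell-like cells to between 0.35 and 1.21 CPM. Markers of meiotic germ cells summed to between 25.5 and 71.9 CPM. Of these Hormad1 alone had 15.9 to 54.0 CPM, and each other marker of the list at most 8.48 CPM. Stag3, the siRNA target, was listed at 24.1, 24.3 and 28.6 CPM in the untreated libraries, at 22.5, 23.3 and 26.7 CPM in siLuc and at 13.5, 15.2 and 15.6 CPM in siStag3. The siStag3 libraries were all below the others, and the log2 difference from siLuc was -0.71 (SE 0.072, edgeR adjusted p = 0.00205), with an adjusted p of 0.605 without the set term and 0.0582 without the Set 1 experiment 1 library of siStag3.

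Levels of different genes were compared only per kilobase of transcript, as CPM per kb with 1 reference transcript per gene. Rad21, the kleisin that closes the ring, had the highest level at 84.1 ± 8.77 CPM per kb (SD, n = 9 libraries). Smc3 followed at 64.1 ± 7.11 CPM per kb and its partner Smc1a at 40.3 ± 1.25 CPM per kb, so the 3 ring genes were among the 4 highest. Wapl, the release factor, stood between these SMC genes at 55.2 ± 8.69 CPM per kb. Pds5a was at 29.5 ± 2.73 CPM per kb and Stag1 at 24.1 ± 4.88 CPM per kb. The loader gene Nipbl at 15.5 ± 2.43 CPM per kb and Pds5b at 15.4 ± 2.33 CPM per kb could not be ordered, since Nipbl was the higher in 5 of 9 libraries. Stag2 at 13.7 ± 2.36 CPM per kb and Mau2 at 11.6 ± 1.34 CPM per kb closed the order, and Stag2 was the higher of this pair in 6 of 9 libraries. Each other pair of neighbours kept its order in 9 of 9 libraries. Transcript lengths ranged from 3956 bases for Rad21 to 9423 bases for Nipbl, and use of another isoform would move a level per kb.

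**Figure D1:**
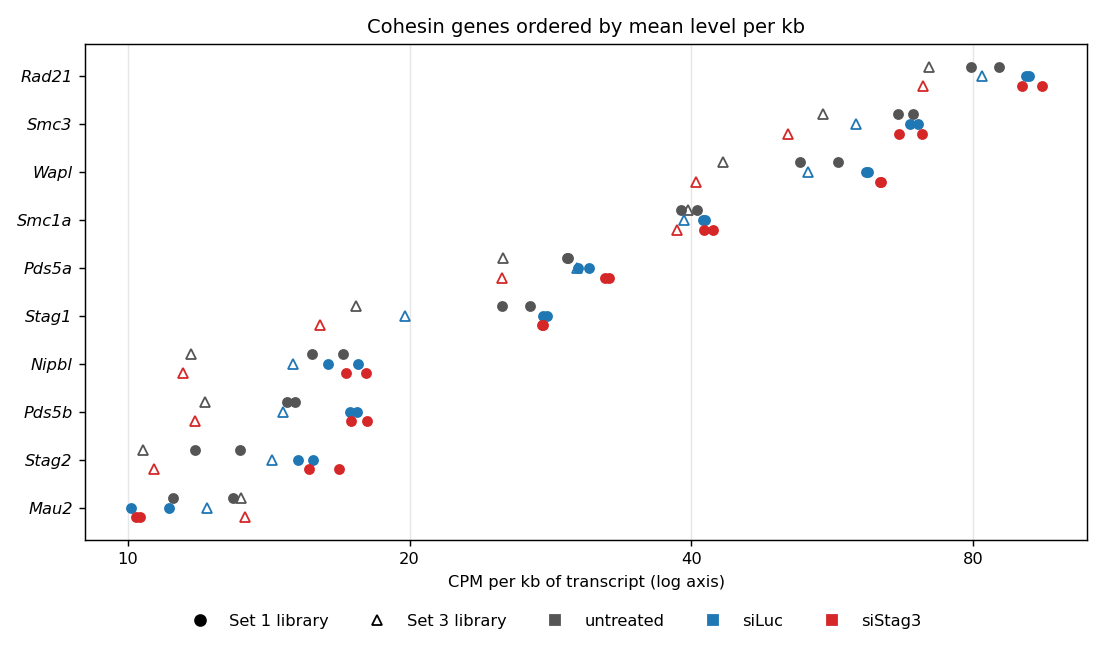
Level of the 10 cohesin genes in CPM per kb of transcript on a log axis, 1 point per library (circles Set 1, triangles Set 3, coloured by group), ordered by the mean over 9 libraries. Rad21 at 84.1 CPM per kb is highest and Mau2 at 11.6 CPM per kb lowest, and the points of Nipbl and Pds5b, and of Stag2 and Mau2, overlap.

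Among the STAG genes, Stag1 held 56.0% ± 4.77 of the summed CPM per kb of Stag1, Stag2 and Stag3 in untreated cells (SD, n = 3), Stag2 28.8% ± 1.12 and Stag3 15.2% ± 3.81. In siLuc cells the shares were 54.4% ± 4.70, 32.9% ± 2.11 and 12.7% ± 2.64. In siStag3 cells Stag1 held 56.6% ± 3.49, Stag2 34.5% ± 0.839 and Stag3 8.86% ± 2.91. With the 1 transcript length used per gene, Stag1 thus held the largest share in every group. These lengths were 6186 bases for Stag1, 5955 for Stag2 and 4211 for Stag3. The median coding transcript has 1012, 3299.5 and 989 bases in turn, and use of another isoform would move the shares. The mean share of Stag3 was lowest in siStag3 cells, where its own RNA was lowered. By library Stag3 held 6.89%, 7.5% and 12.2% in siStag3 and 10.9%, 11.4% and 15.7% in siLuc. The last of each triple is the Set 3 library, and the ranges overlap. The shares were not tested.

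The 10 genes have transcripts of low GC content and long length compared with the genes tested. Their median GC content was 42.4%, against 50.2% over the genes tested, and their median length 6070.5 bases, against 3017 bases. Stag2 had the lowest GC content of the 10 at 38.1% and Mau2 the highest at 51.9%. Promoter sequences, the 250 bases before a gene's start, were taken from RefSeq (GRCm38.p6), which matched 7 of the 10 genes with 8 promoters. Stag2, Rad21 and Nipbl had no entry. The promoters of 3 genes are shown, chosen by their results in the comparison of sets given further on. These are Stag1, whose level was lowest in Set 3 relative to Set 1, and Smc1a, which did not pass the test. The third is Mau2, which moved the other way and of whose pair of entries the one of higher GC content is given. A link between promoter sequence and these results was not tested. Capitals mark a GC box (GGGCGG) or a CCAAT box (CCAAT) on either strand; the motifs share no base here.
Stag1 promoter, chr9:100643198-100643447, plus strand: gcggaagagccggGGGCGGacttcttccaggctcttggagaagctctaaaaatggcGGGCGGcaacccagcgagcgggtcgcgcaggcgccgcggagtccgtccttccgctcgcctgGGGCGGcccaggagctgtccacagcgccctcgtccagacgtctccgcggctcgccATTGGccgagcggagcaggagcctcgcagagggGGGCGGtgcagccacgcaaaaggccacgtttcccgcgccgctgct
Smc1a promoter, chrX:152016178-152016427, plus strand: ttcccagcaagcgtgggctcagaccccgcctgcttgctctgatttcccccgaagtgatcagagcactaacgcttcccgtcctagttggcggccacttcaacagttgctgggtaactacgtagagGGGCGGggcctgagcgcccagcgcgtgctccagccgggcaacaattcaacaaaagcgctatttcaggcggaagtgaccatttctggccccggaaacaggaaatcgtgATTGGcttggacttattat
Mau2 promoter, chr8:70042735-70042984, minus strand: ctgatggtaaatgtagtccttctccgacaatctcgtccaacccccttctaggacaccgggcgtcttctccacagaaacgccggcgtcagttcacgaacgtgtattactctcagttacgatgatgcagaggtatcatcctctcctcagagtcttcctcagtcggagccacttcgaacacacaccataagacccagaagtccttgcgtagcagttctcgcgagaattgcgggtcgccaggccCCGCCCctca
The Stag1 window held 4 GC boxes and 1 CCAAT box, that of Smc1a 1 of each, and that of Mau2 1 GC box. Over all 8 promoters of the cohesin genes, 7 held a GC box, 4 a CCAAT box and 0 a TATA box (TATAAA). Of 32851 mouse promoter windows of the same length, 32.7% held a GC box, 33.8% a CCAAT box and 12.4% a TATA box. GC content was 71.2% in the Stag1 window, 56.8% in that of Smc1a and 54.8% in that of Mau2. Over the 8 promoters it ran from 44.0%, in the other Mau2 entry, to 80.4% for Pds5a. The median over all mouse promoter windows was 52.4%, and motif counts were not compared at like GC content.

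With Stag3 lowered, none of the 10 cohesin genes passed the test against siLuc. Log2 differences ran from -0.10 for Stag1 to 0.02 for Mau2, with a median of -0.087 against -0.0048 over all genes tested, and 8 were negative. The edgeR test called 0 of 10 at an adjusted p under 0.05, beside 0.0281% of all genes tested, and 0 of 10 had an unadjusted p under 0.05, beside 7.88% of all genes. The groups overlapped in CPM for 10 of 10, where 6.59% of all genes had groups that did not overlap.

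The other STAG genes are the nearest relatives of the siRNA target. Stag1 was at 171.7, 171.3 and 99.4 CPM in siStag3 and at 173.4, 171.9 and 122.3 CPM in siLuc, the last of each triple being the Set 3 library. In both groups the Set 1 libraries lay within 1.5 CPM of each other and the Set 3 library was far lower. The log2 difference was -0.10 (SE 0.065, edgeR adjusted p = 0.712). Stag2 was at 93.0, 100.1 and 63.5 CPM in siStag3 and at 93.9, 90.6 and 84.9 CPM in siLuc, so that only the Set 3 library of siStag3 stood below the siLuc range. Its log2 difference was -0.091 (SE 0.088, edgeR adjusted p = 0.801), with a 95% interval of -0.28 to 0.10.

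For the ring genes, Smc1a was at 198.0, 193.5 and 181.0 CPM in siStag3 and at 193.0, 194.1 and 184.2 CPM in siLuc, a log2 difference of 0.0029 (SE 0.052, edgeR adjusted p = 0.992). Smc3 differed by -0.087 (SE 0.059) and Rad21 by -0.056 (SE 0.060) on the log2 scale. Of the loader genes, Nipbl differed by -0.10 (SE 0.080) and Mau2, its partner, by 0.018 (SE 0.074). The release factor Wapl differed by -0.099 (SE 0.079), Pds5a by -0.033 (SE 0.066) and Pds5b by -0.087 (SE 0.068). The smallest adjusted p of the 10 was 0.712 and the largest 0.992. The 95% intervals differed in width, from -7.31% to 8.32% for Smc1a to -17.7% to 7.12% for Stag2, and all 10 lay between -17.7% and 13.1%. These intervals are not adjusted for the number of genes tested and are not limits of detection. Changes inside a gene's own interval, and some outside it, could go uncalled at this spread.

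The differences between siStag3 and siLuc were not alike in both sets, though this was not tested. Within Set 1 the 10 genes had a median log2 difference of 0.018, between -0.043 and 0.083, and 7 were positive. Within Set 3, with 1 library of each, the median was -0.28, between -0.42 for Stag2 and 0.14 for Mau2, and 1 was positive. That siLuc library carries experiment number 1 and the siStag3 library experiment number 5, so within Set 3 the treatment and the experiment number cannot be told apart. After correction for GC content the median was 0.00038 and 0 of 10 were called, beside 0.498% of all genes.

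**Figure D2:**
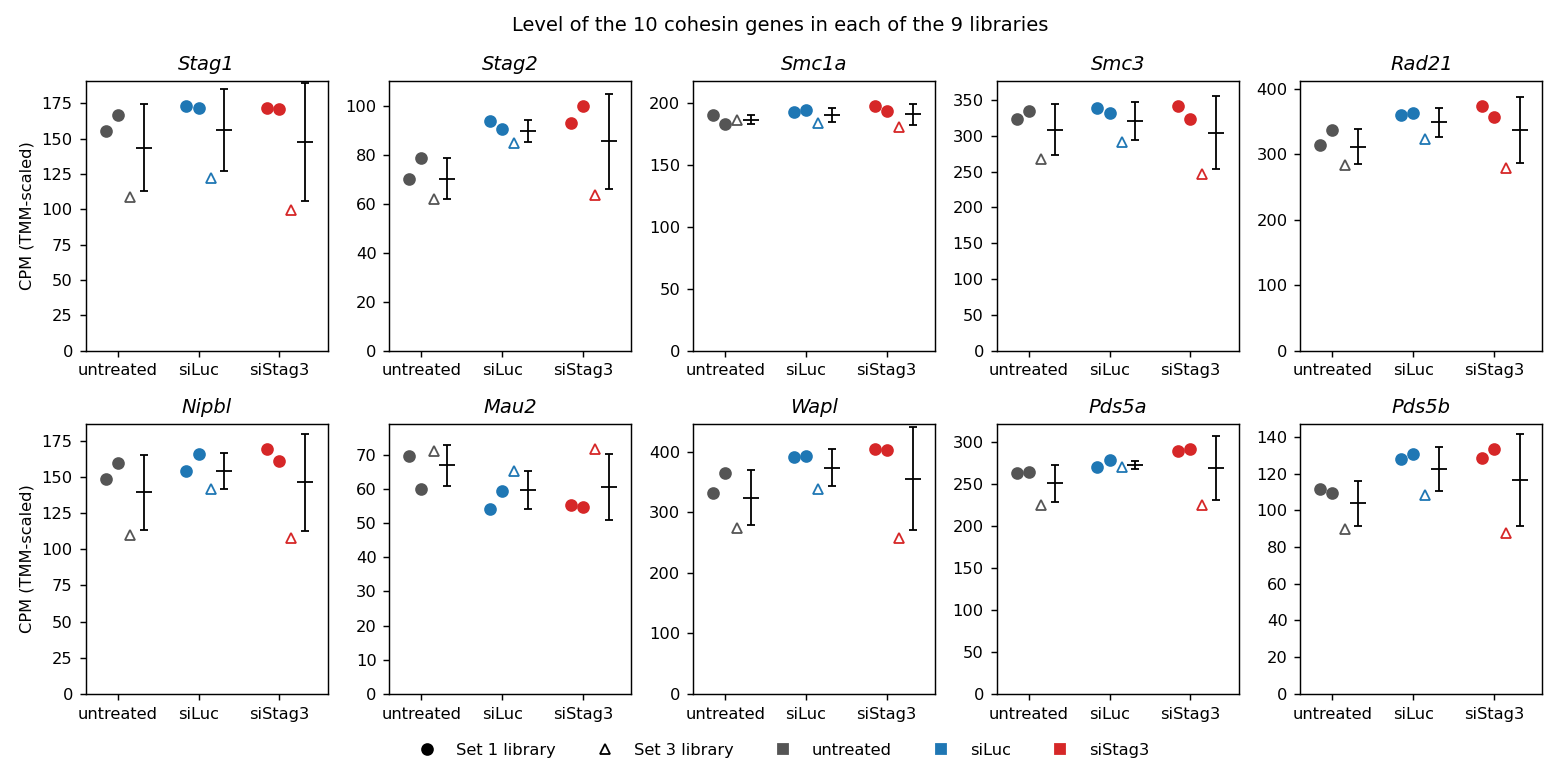
CPM of each cohesin gene in the 9 libraries, by group, with circles for Set 1, triangles for Set 3 and the group mean ± SD beside them. The siStag3 libraries overlap the siLuc libraries for every gene, and the Set 3 libraries lie lowest for Stag1, whose range is 99.4 to 173.4 CPM.

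Between siLuc and untreated cells 1 of the 10 genes passed the test. Stag2, which lies on the X chromosome and encodes the alternative to STAG1, was higher in siLuc cells by 28.5% (log2 difference 0.36, SE 0.088, edgeR adjusted p = 0.0394). Over all genes tested 4.2% were called in this comparison and 1.65% were higher. Stag2 stood at 70.2, 78.5 and 61.8 CPM in untreated cells and at 93.9, 90.6 and 84.9 CPM in siLuc cells. All 3 siLuc libraries were above all 3 untreated ones, by 0.31 on the log2 scale within Set 1 and by 0.46 within Set 3. The Set 3 value rests on 1 library each, siLuc of experiment 1 and untreated of experiment 5. Treatment and experiment number cannot be told apart in it.

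The call of Stag2 rests on the model. The adjusted p was 0.58 with no term for the set, 0.102 with a correction for GC content, which lowered the log2 difference to 0.13, and 0.0555 with one for length. It was 0.0525 with a non-robust fit and 0.269 with the experiment number as a further term. It was 0.0566 with libraries matched across groups as a block, by set and experiment in Set 1 and by set alone in Set 3. It lost its call when any 1 of 6 libraries was left out, namely each untreated library, the Set 1 experiment 1 and Set 3 libraries of siLuc and the Set 1 experiment 1 library of siStag3, with an adjusted p of up to 0.212.

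The other 9 genes did not pass the test against untreated cells. Pds5b was nearest, at 111.8, 109.7 and 89.7 CPM in untreated cells and at 128.0, 130.4 and 108.6 CPM in siLuc cells, with a log2 difference of 0.24 (SE 0.068, edgeR adjusted p = 0.0589). Its lowest siLuc library, of Set 3, lay between the untreated Set 3 and Set 1 values. Wapl differed by 0.22 (SE 0.079, edgeR adjusted p = 0.107), Rad21 by 0.16 (SE 0.060), Nipbl by 0.16 (SE 0.080), Pds5a by 0.13 (SE 0.066) and Stag1 by 0.13 (SE 0.065) on the log2 scale. The differences of Smc3 and Smc1a were 0.060 (SE 0.059) and 0.030 (SE 0.052). Mau2 was the one gene with a negative value, -0.17 (SE 0.074, edgeR adjusted p = 0.161), at 69.6, 60.0 and 70.9 CPM in untreated cells and at 54.1, 59.4 and 65.2 CPM in siLuc cells.

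In all, 9 of 10 differences were positive with a median of 0.14, against -0.0024 over all genes. The unadjusted p was under 0.05 for 5 of 10, beside 27.8% of all genes. Pds5a and Stag2 had siLuc libraries all above the untreated ones, beside 9.59% of all genes. Mitochondrial genes took 3.48% to 5.33% of counts in untreated libraries and 5.98% to 6.73% in siLuc libraries, and the part of this in the differences was not tested. With GC correction 4 of 10 were positive, the median was -0.0079 and 0 of 10 were called, beside 7.03% of all genes.

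siStag3 cells shared the untreated controls with the comparison just given. None of the 10 genes passed the test against untreated cells, beside 2.53% of all genes called, and the median log2 difference was 0.078. The unadjusted p was under 0.05 for 2 of 10, beside 17% of all genes. Stag2 was again the largest, at 0.27 (SE 0.088, edgeR adjusted p = 0.134), and its siStag3 library of Set 3, at 63.5 CPM, lay within the untreated range. Pds5b differed by 0.15 (SE 0.068, edgeR adjusted p = 0.270) and Mau2 by -0.15 (SE 0.074, edgeR adjusted p = 0.321). Without that siStag3 library 3 of 10 were called, Stag2 at 0.40, Pds5b at 0.25 and Wapl at 0.24, beside 11% of all genes. In Set 1 alone 2 of 10 were called, Stag2 at 0.38 (edgeR adjusted p = 0.0143) and Pds5b at 0.24 (edgeR adjusted p = 0.0292), beside 6.62% of all genes. Leaving the same library out of the fit raised the calls between siLuc and untreated cells to 4 of 10, Stag2, Rad21, Wapl and Pds5b, beside 17% of all genes.

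**Figure D3:**
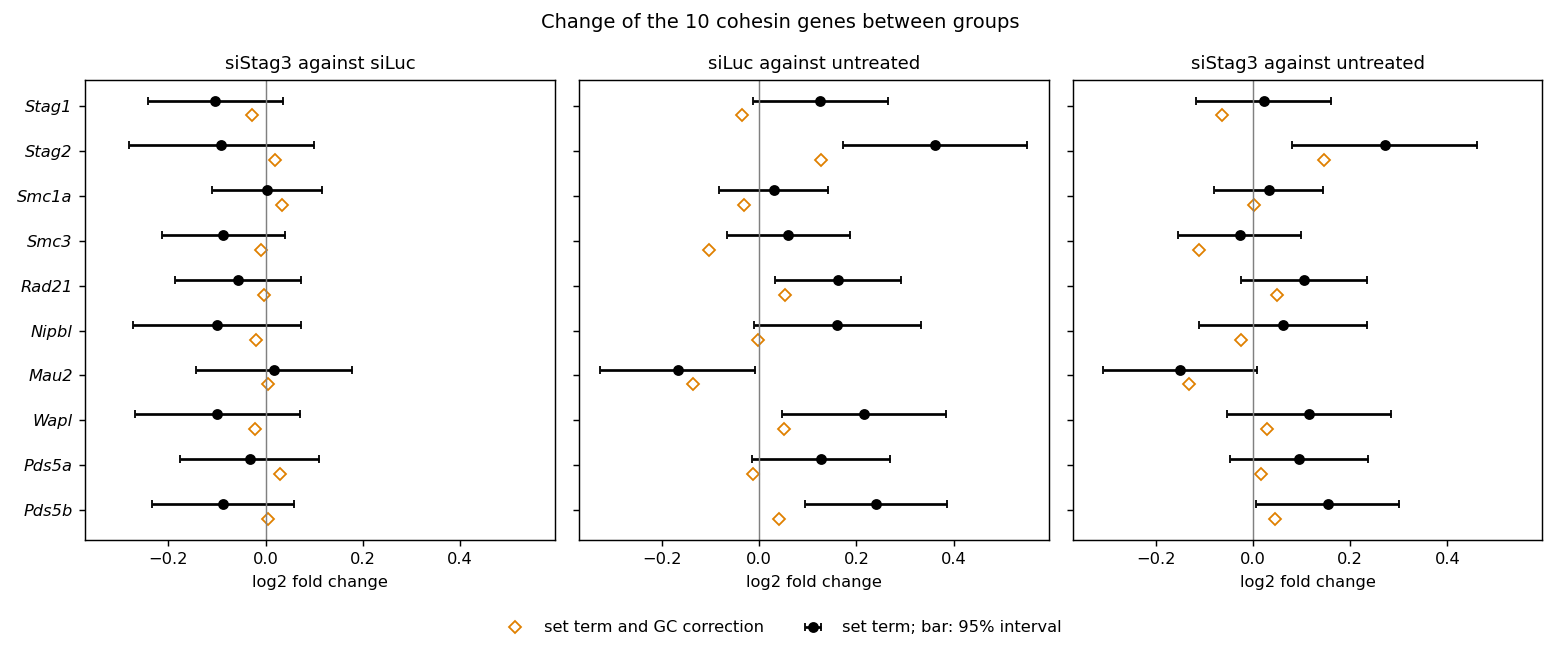
Log2 difference of each cohesin gene in the 3 comparisons of groups, as filled points with 95% intervals from the edgeR fit, and as open diamonds after GC correction. The intervals for siStag3 against siLuc all cross 0, and Stag2 is furthest from 0 for siLuc against untreated, at 0.36, or 0.13 after GC correction.

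Most of the cohesin genes differed between sets. Compared with Set 1, 8 of 10 were lower in Set 3 and Mau2 was higher, while Smc1a did not pass the test. In this comparison 42.7% of all genes were called, 21.2% lower and 21.4% higher, so calls were common everywhere. The median of the 10 was -0.32 on the log2 scale, against 0.0025 over all genes.

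Stag1 had the largest difference between sets, -0.62 (SE 0.057, edgeR adjusted p = 5.9e-06), or 34.7% lower. It was at 108.5, 122.3 and 99.4 CPM in the Set 3 libraries of untreated, siLuc and siStag3 cells and between 155.3 and 173.4 CPM in the 6 Set 1 libraries. Each Set 3 library was below each Set 1 library. Stag2 was lower too, with a difference of -0.32 (SE 0.077, edgeR adjusted p = 0.00491), with its siLuc Set 3 library among the Set 1 values.

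Of the ring genes, Smc3 differed between sets by -0.31 (SE 0.052, edgeR adjusted p = 0.000404) and Rad21 by -0.25 (SE 0.053, edgeR adjusted p = 0.00222). Smc1a differed by -0.062 (SE 0.045, edgeR adjusted p = 0.289), with a 95% interval of -0.16 to 0.036, and its coefficient of variation over the 9 libraries, 3.11%, was the smallest of the 10. Smc1a and Smc3 encode the paired SMC arms of the same ring, and their ratio per kb was 0.597 ± 0.0189 in Set 1 (SD, n = 6) and 0.711 ± 0.0529 in Set 3 (SD, n = 3).

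The loader genes moved in opposite directions. Nipbl was lower in Set 3, with a log2 difference of -0.42 (SE 0.071, edgeR adjusted p = 0.000463), at 107.9 to 141.3 CPM against 148.2 to 169.4 CPM. Mau2 was higher by 0.24 (SE 0.064, edgeR adjusted p = 0.00906), at 65.2 to 71.7 CPM against 54.1 to 69.6 CPM, where the ranges overlap. The Nipbl to Mau2 ratio per kb was accordingly 1.56 ± 0.187 in Set 1 and 0.993 ± 0.211 in Set 3.

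Wapl differed between sets by -0.40 (SE 0.069), Pds5b by -0.38 (SE 0.060) and Pds5a by -0.21 (SE 0.058). All 3 regulators were lower in Set 3, with edgeR adjusted p of 0.000596, 0.000311 and 0.0117. Over the 10 genes, 4 (Stag1, Smc3, Nipbl and Pds5b) had Set 3 libraries all below the Set 1 ones, beside 13% of all genes. Mau2 lost its call without the Set 3 library of siStag3 (edgeR adjusted p = 0.0688), and Pds5a without that library (edgeR adjusted p = 0.120) or the untreated Set 3 library (edgeR adjusted p = 0.0744).

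Differences between sets went along with GC content. Over the 10 genes, Spearman's rho between GC content and the Set 3 difference was 0.71 and Pearson's r 0.84, given as a description of points that share the 9 libraries. For siLuc against untreated the same values were -0.78 and -0.94. With a GC correction 7 of 10 were still called, beside 41.3% of all genes, 6 of them lower, and the median was -0.11. Stag1 kept the largest difference at -0.41, while Stag2 at -0.0081 and Pds5a at -0.038 lost their calls. With the experiment number as a further term 1 of 10 was called, Stag1 at -0.48 (edgeR adjusted p = 0.019), beside 4.91% of all genes, a fit in which the difference between sets rests on experiment 1, whose Set 3 library is from siLuc cells.

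**Figure D4:**
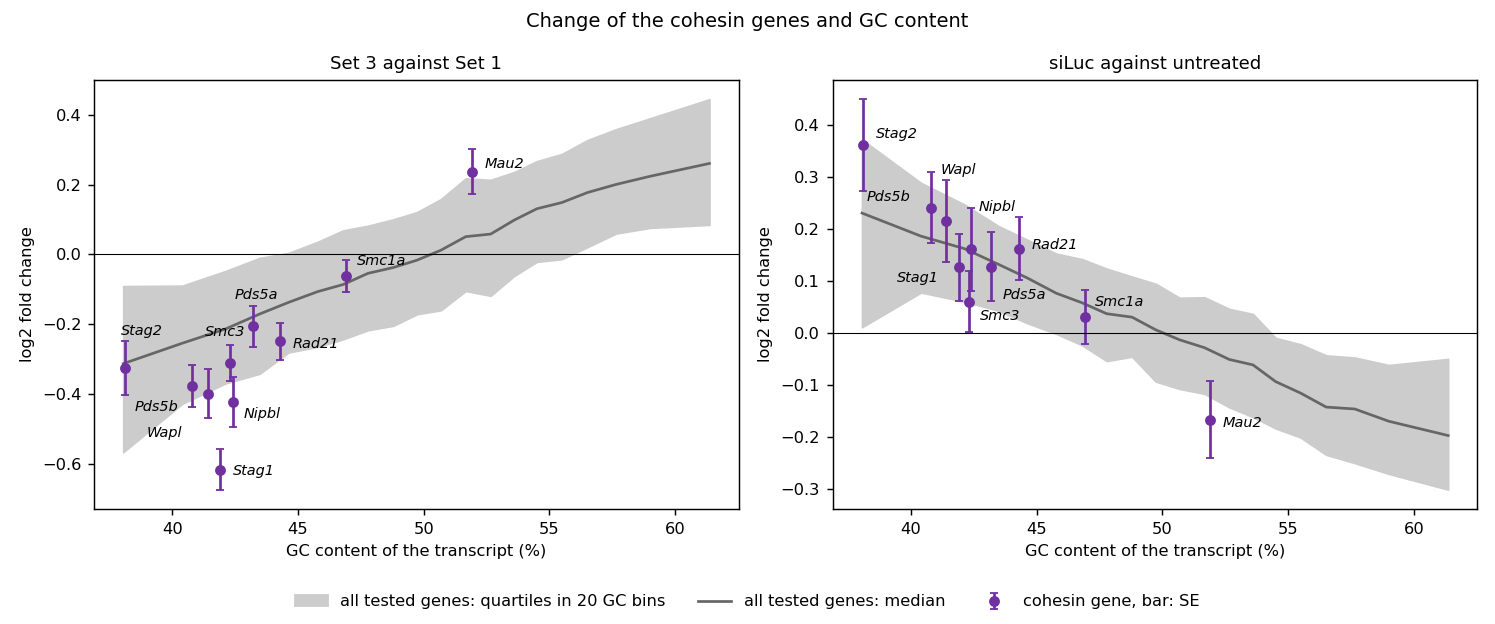
Log2 difference of the cohesin genes (bars: SE) against the GC content of their transcripts in percent, for Set 3 against Set 1 and siLuc against untreated, over the median of all genes tested in 20 GC bins with the middle quartiles shaded. Stag2 at 38.1% GC and Mau2 at 51.9% GC have the lowest and highest GC content of the 10. The lowest log2 difference between sets is that of Stag1, at -0.62, and not that of Stag2, at -0.32. In the comparison of sets Stag1 lies far below the shaded band, Nipbl a little below, Wapl at its lower edge and Mau2 just above it.

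Ratios between partners and paralogs were computed within each library, so that scaling between libraries cancels. The Stag1 to Stag2 ratio per kb was 1.95 ± 0.233 (SD, n = 3) without treatment, 1.66 ± 0.241 after siLuc and 1.64 ± 0.135 after siStag3. The log2 ratio differed by -0.24 between siLuc and untreated (two-sided exact permutation p = 0.3) and by -0.0098 between siStag3 and siLuc (exact permutation p = 0.9). These permutations take no account of the set, in which the log2 ratio also differed, 0.95 in Set 1 against 0.66 in Set 3. Libraries were also matched by set and experiment in Set 1 and by set alone in Set 3. In Set 3 the siLuc library is of experiment 1 and the untreated and siStag3 libraries of experiment 5. The siLuc libraries were below the untreated ones in 3 of 3 matches, by -0.26, -0.16 and, in Set 3, -0.28 on the log2 scale. The siStag3 libraries were below the untreated ones in 3 of 3, by -0.26, -0.31 and, in Set 3, -0.16. The smallest two-sided exact p that 3 pairs can give is 0.25, and 9 of the 18 differences of ratio between groups had 1 sign in all 3 matches. At the 1 transcript length used per gene, Stag1 was above Stag2 in every library, at 1.39 to 2.13 times its level per kb. Use of another isoform would move this ratio in every library. Pds5a exceeded Pds5b in every library too, with mean ratios of 2.01, 1.86 and 1.94 in untreated, siLuc and siStag3 cells.

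The Rad21 to Smc3 ratio per kb was 1.24 ± 0.0516 (SD, n = 3) without treatment, 1.34 ± 0.0308 after siLuc and 1.36 ± 0.0270 after siStag3. Both treated groups lay above the untreated group without overlap, by 0.10 and 0.13 on the log2 scale, each with an exact permutation p of 0.1. That is the smallest p that 3 against 3 libraries can give. The Smc1a to Smc3 ratio was 0.631, 0.616 and 0.659, and the Wapl to Nipbl ratio 3.47, 3.61 and 3.60, in untreated, siLuc and siStag3 cells. The Nipbl to Mau2 ratio had the widest spread, 1.21 ± 0.317, 1.48 ± 0.215 and 1.43 ± 0.494. Over 6 ratios and 3 comparisons, 18 tests in all, the smallest adjusted exact permutation p was 0.771.

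**Figure D5:**
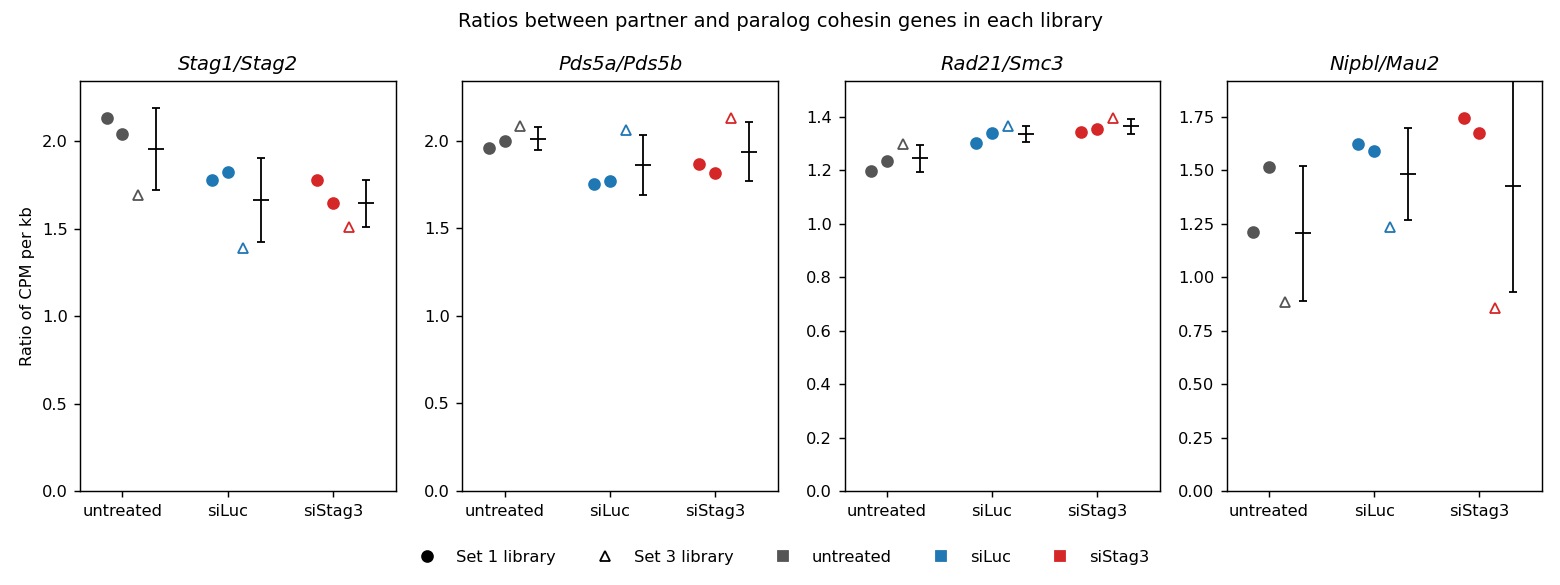
Ratio of the levels per kb of 4 pairs of cohesin genes in each library, by group, with the mean ± SD. The Rad21 to Smc3 ratios of the untreated libraries lie below those of both treated groups, and the Nipbl to Mau2 ratios spread most, with Set 3 libraries lowest in each group.

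Other genes of chromosome structure were counted from fixed lists, with edgeR over all genes. Between siStag3 and siLuc, 0.0281% of all genes were called. There, 0 of 12 regulators of the cohesin cycle, 0 of 8 condensin genes and 0 of 8 genes of the SMC5/6 complex were called. Of the 3 meiotic cohesin genes in the table only Stag3 was called. Between siLuc and untreated cells 4.2% of all genes were called, and 7.03% with GC correction. In this comparison 1 of 12 regulators fell, Pttg1, by 0.38 on the log2 scale (edgeR adjusted p = 0.0307). It encodes securin, the inhibitor of separase. The meiotic kleisin Rec8 fell by 0.35 (edgeR adjusted p = 0.0329, and 0.0716 with GC correction), and 0 of the condensin and SMC5/6 genes were called. With GC correction 1 of 8 condensin genes was higher, Smc4 at 0.22 (edgeR adjusted p = 0.0433), and 1 of 8 SMC5/6 genes lower, Nsmce3 at -0.22 (edgeR adjusted p = 0.0173), the latter named after its value was seen. Between siStag3 and untreated cells, where 2.53% of all genes were called, 1 of 12 regulators fell, Pttg1 by 0.49 (edgeR adjusted p = 0.00834). Of the 3 meiotic cohesin genes Stag3 and Rec8 fell, Rec8 by 0.48 (edgeR adjusted p = 0.00720). With no set term the edgeR adjusted p was 0.784 for Pttg1 and 0.873 for Rec8. For siLuc against untreated cells it was then 0.595 and 0.623. Rec8 had groups that overlapped in CPM in both comparisons. Between sets, 21.2% of all genes were called lower and 21.4% higher. Condensin had 4 of 8 genes lower and 0 higher, with a median of -0.26. The SMC5/6 complex had 4 of 8 lower and 2 higher, with a median of -0.17. Of the 12 regulators 5 were lower and 1 higher, with a median of -0.082, or -0.056 with GC correction. Of the 3 meiotic cohesin genes 1 was lower and 2 were higher, with a median of 0.20, or 0.22 with GC correction. With GC correction the medians were -0.11 for condensin, with 5 of 8 lower, and 0.0097 for the SMC5/6 complex, with 3 of 8 lower and 3 higher, beside -0.11 for the 10 cohesin genes. With that correction 41.3% of all genes were called between sets, in either direction. The medians were not tested against each other.

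The mean profile of the 10 genes over the 9 libraries was close to that of Rad21, at a root mean square log2 difference of 0.032, and furthest from that of Mau2, at 0.30. Stag1 stood at 0.16, Stag2 and Smc1a at 0.12. Each of the 10 is part of that mean, so their distances are not on equal terms with those of other genes. Of 9050 other genes searched, those nearest to the mean profile were Chd1 at 0.020, Opa1 at 0.021, Oga at 0.023, Usp38 at 0.025 and Eif3a at 0.026, where the median gene was at 0.19. In bulk libraries such as these, fewer cells of a type and less RNA per cell cannot be told apart.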

How the data were processed

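RNA of 9 libraries of E14 mouse embryonic stem cells was analysed, 3 untreated, 3 siLuc and 3 siStag3, which the series' design text calls biological replicates. The deposited table holds raw whole-number counts per gene, made by the authors. Salmon, DESeq2, FastQC and GRCm39 are named in the submitters' processing notes without roles; the annotation and strand setting are not given in the sources used here. Shares of sequence that different genes have in common, as 31-base words, were 3.19% for Smc3, 2.40% for Mau2 and at most 0.28% for the other cohesin genes, so reads of the first pair may be split. The smallest gene sum in the table is 9, so rarer genes are not listed. The 8 rows with no symbol hold 0.0156% of counts and were left out.

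Columns gave the group, a set and an experiment number, not a replicate number. Tests used edgeR 4.0.16 (R 4.3.3; robust quasi-likelihood F tests) on the counts, with TMM factors, filterByExpr, all 9 libraries, a mean per group and an additive set term. P-values are two-sided and Benjamini-Hochberg adjusted over 14246 genes, with a threshold of 0.05. The biological coefficient of variation was 7.62% with the set term and 14.6% without. The depth of 29332436 to 44527534 counts gives a floor, 3 counts, of at most 0.0990 CPM, which covers counting error only and lies far below every cohesin gene. CPM used TMM-scaled library sizes. GC content and length came from 1 principal transcript per gene of GENCODE M21. For GC correction, genes were binned into 20 classes of GC content and each library was centred within each class by its median deviation. The test was tried on simulated counts, whose outcome is not given here and is not used as support. Alternatives were DESeq2 1.42.0, its size factors, total counts, other filters, fewer groups, Set 1 alone and no set term. Further ones were corrections for GC content and length, a non-robust fit, the experiment number as a further term and leaving out each library. Added after seeing the data was a block of libraries matched by set and experiment, with the Set 3 libraries as 1 match. Named genes are all 10 cohesin genes, Stag3, at most 3 genes of smallest p per context list and the 5 genes nearest the mean profile. The marker Hormad1 was named after its values were seen. The members, lists and model were chosen with earlier results of these data known.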

Additional observations from a re-analysis of the deposited data

How the results depend on the processing

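Between siStag3 and siLuc, 0 cohesin genes were called under every alternative run, the replicate block included, and without each library. The median of their log2 differences, -0.087, was 0.017 in Set 1 alone, 0.00038 with GC correction, -0.0036 with the experiment number as a further term and -0.11 to 0.012 without 1 library. Between siLuc and untreated cells 1 gene was called. The count was 0 with no set term, with GC correction, with length correction, with a non-robust fit and with the experiment number, 2 with DESeq2, 3 with only the 2 groups compared and 0 to 4 without 1 library. The median, 0.14, was -0.0079 with GC correction, 0.050 with the experiment number and 0.054 to 0.18 without 1 library. Between siStag3 and untreated cells the count of 0 was 2 in Set 1 alone and 0 to 3 without 1 library, and the median, 0.078, was 0.042 to 0.17. Between sets the count of 9 was 1 with the experiment number, and the median, -0.32, was -0.11 with GC correction, -0.22 with length correction, -0.16 with the experiment number and -0.39 to -0.22 without 1 library.

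Some uncalled differences changed sign. For siStag3 against siLuc, Set 1 alone gave 0.065 for Stag2, 0.017 for Rad21, 0.044 for Nipbl, -0.046 for Mau2, 0.045 for Wapl, 0.082 for Pds5a and 0.018 for Pds5b. GC correction gave 0.020 for Stag2, 0.030 for Pds5a and 0.0043 for Pds5b, and length correction 0.036 for Pds5a. The experiment number gave 0.0097 for Stag2, -0.0022 for Smc1a, 0.025 for Nipbl, -0.0029 for Mau2 and 0.060 for Pds5a, and only the 2 groups -0.00027 for Smc1a. Without 1 library, Stag2 ranged from -0.17 to 0.043, Smc1a from -0.013 to 0.030, Rad21 from -0.10 to 0.013, Nipbl from -0.17 to 0.024, Mau2 from -0.055 to 0.065, Wapl from -0.14 to 0.026, Pds5a from -0.074 to 0.060 and Pds5b from -0.14 to 0.012. For siLuc against untreated, GC correction gave -0.035 for Stag1, -0.032 for Smc1a, -0.10 for Smc3, -0.0029 for Nipbl and -0.013 for Pds5a, while total counts gave -0.021 and length correction -0.0024 for Smc1a. For siStag3 against untreated, total counts gave -0.023 for Stag1 and -0.012 for Smc1a, Set 1 alone 0.021 for Smc3, and GC correction -0.063 for Stag1 and -0.023 for Nipbl. Without 1 library Stag1 ranged there from -0.011 to 0.11 and Smc3 from -0.068 to 0.037. Between sets, Smc1a was 0.018 with GC correction and 0.023 with length correction, and Pds5a 0.028 with length correction.

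The Rad21 to Smc3 log2 difference of siLuc from untreated, 0.10, was 0.16 with GC correction. The cause of these changes was not tested. Over all genes, calls between siLuc and untreated cells numbered 598, and 1 with no set term, 1328 with DESeq2, 1801 with only the 2 groups compared, 1002 with GC correction, 298 in Set 1 alone and 86 with the experiment number. Between siStag3 and siLuc 4 were called, 71 with GC correction, 22 with DESeq2 and 0 with no set term. Between siStag3 and untreated cells 361 were called, 972 with GC correction, 949 in Set 1 alone and 2 with no set term. Between sets 6076 were called, and 699 with the experiment number. With 3 libraries per group and 1 Set 3 library in each, differences within Set 3 have no replicate. Replicate numbers are given in the titles and not in the columns, so libraries were matched by set and experiment, with the 3 Set 3 libraries as 1 match. This replicate block was added after seeing the data. It gave 0 called cohesin genes in each comparison of groups, which ended the call of Stag2 between siLuc and untreated cells (0.36, edgeR adjusted p = 0.0566), and changed no other call or sign of the 10 genes. Over all genes it called 317 between siLuc and untreated cells.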
